A study of Homo sapiens with 6 samples.

Results

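Cholesterol and fatty acid synthesis was examined through 39 genes in A549 cells, an established line of human lung adenocarcinoma, after knockdown of CEP20, a gene for a protein of centrosomes and centriolar satellites. The genes were chosen by the known function of their products, with earlier results of these data known. They encode enzymes of sterol and fatty acid synthesis, the sterol regulatory element-binding proteins (SREBPs) with their partners in the membrane of the endoplasmic reticulum (ER), and proteins that carry or export sterols. All 39 were found among the 60624 genes of the table. RNA was sequenced from 3 siCTR libraries, which received a control small interfering RNA (siRNA), and from 3 siCEP20 libraries, which received siRNA against CEP20. All 6 came from A549 cells for which the labels name no other genetic change, grown in medium with fetal bovine serum and transfected for 3 days. In the labels, 1 field names a plasmid transfection where the study's methods describe siRNA, and the labels do not say which siRNA sequence each siCEP20 library received. They also do not say whether the replicates were separate cultures, so the p-values measure the spread between these samples, which may be technical.

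Cells make cholesterol from acetyl-CoA through mevalonate, farnesyl diphosphate and squalene, and make fatty acids from the same precursor by carboxylation and chain building. When ER membranes run low in sterol, SCAP carries SREBP precursors to the Golgi, where they are cut, and the released factors switch on the genes of synthesis and uptake. INSIG proteins hold SCAP back when sterol is ample, while liver X receptors (LXRs) sense oxysterols and switch on the export genes ABCA1 and ABCG1.

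Expression was given as TPM (transcripts per 1000000), a read-based measure scaled for the length of each transcript and for the sum over the library, so that levels can be set side by side between genes and the sequencing depth is unknown. Differences were fitted with limma on log2(TPM + 1) over the 14778 genes whose mean reached 1 TPM, a scale that understates the change of weakly expressed genes. A gene passed the test at a Benjamini-Hochberg adjusted p under 0.05, and it was called if its fold change was also over 1.5 or under 0.67. CEP20, the targeted gene, was at 29.2, 30.5 and 35.1 TPM in the siCTR libraries and at 16.2, 15.3 and 17.3 TPM in the siCEP20 libraries, a mean of 51.4% of the control level. All tested genes together had a median log2 fold change of 0.13, which went to 9.4e-05 when the libraries were scaled by the median of ratios, so values are also given relative to that median. Keratins KRT7, KRT8 and KRT18 were each at 1535 TPM or more in all libraries. EPCAM was between 0.834 and 1.24 TPM in siCTR and between 3.01 and 3.85 TPM in siCEP20 libraries. CDH1 was between 11.1 and 12.4 TPM in siCTR and between 21.9 and 24.1 TPM in siCEP20 libraries. Both EPCAM and CDH1 were called higher. The 6 epithelial markers summed to 7029 to 7333 TPM in siCTR and 8474 to 8709 TPM in siCEP20 libraries. The 3 endothelial markers, 3 of 4 immune markers and 3 of 4 fibroblast markers stayed under 1 TPM in all libraries, with CD14 between 7.20 and 10.9 TPM and COL1A1 between 5.27 and 5.90 TPM in siCTR and between 17.5 and 19.6 TPM in siCEP20 libraries. Of 3 hepatocyte markers, CYP3A4 was listed at 0 throughout, whereas ALB was between 6.62 and 13.9 TPM in 5 libraries and listed at 0 in siCEP20 replicate 2, and the list summed to 15.8 TPM at most. The part of these marker levels in the results was not tested.

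After CEP20 knockdown, members of the group changed in both directions. ACSL3, SCAP and FADS2 rose the most, by 1.51-fold to 1.58-fold, 6 of the 11 enzymes that make squalene and turn it into cholesterol rose by less, and ABCG1, ABCA1 and the mevalonate pathway enzyme PMVK fell by 1.53-fold to 1.84-fold. In all, 15 members (38.5%) passed the test upward, 5 (12.8%) passed it downward and 19 did not pass. Over all tested genes, 30.2% passed upward and 13.2% downward. Of the members, 3 were called higher, where 11.2% of all tested genes were, and 3 were called lower, where 4.61% were. The 2 groups of libraries did not overlap for 17 members that were higher and 7 that were lower in siCEP20, against 38.4% and 17.0% of all tested genes (55.4% in either direction). The median log2 fold change of the members was 0.11, or -0.03 relative to that of all tested genes, and the members ranged from -0.88 to 0.66. Scaling by the median of ratios moved the split of members that passed from 15 higher and 5 lower to 10 higher and 11 lower, left none called higher and 3 called lower, and put the members' median at -0.03. The whole table moved likewise, to 20.1% that passed upward and 21.6% downward, beside 25.6% and 28.2% of the members. With that scaling 6.05% of all tested genes were called higher and 7.46% lower, beside 0% and 7.69% of the members. In a culture of cells, fewer cells with a transcript and less of it in each cell cannot be told apart.

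**Figure D1:**
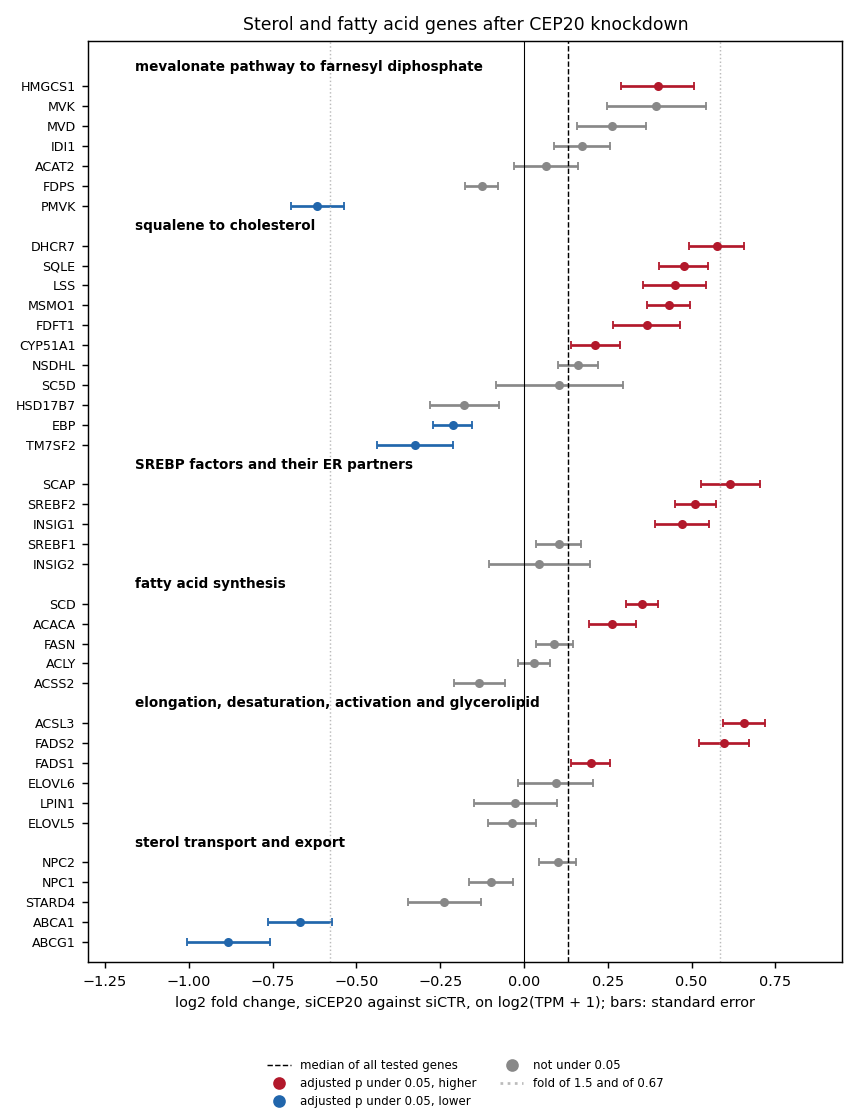
Log2 fold change of each of the 39 genes, siCEP20 against siCTR on the log2(TPM + 1) scale, grouped by role, with bars for the standard error, the dashed line at the median of all tested genes (0.13) and dotted lines at the fold changes of 1.5 and 0.67. Genes that passed the test upward (15) are red, those that passed downward (5) are blue, and the values run from -0.88 for ABCG1 to 0.66 for ACSL3.

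To ask whether the regulators of the pathway changed, the SREBP genes and their ER partners were described first. SREBF2, whose product drives mainly the sterol genes, was at 68.8, 64.5 and 67.4 TPM in siCTR and at 91.4, 100.3 and 95.9 TPM in siCEP20 libraries. Every siCEP20 library was above every siCTR library, and SREBF2 rose 1.43-fold (log2 fold change 0.51 ± 0.06 SE, limma adjusted p = 0.000455). SREBF1, the other SREBP gene, was the more abundant of the pair, at 161, 146 and 166 TPM in siCTR and 159.8, 171 and 177 TPM in siCEP20 libraries. Its groups overlapped, and its log2 fold change of 0.10 did not pass (limma adjusted p = 0.248); it was -0.05 with median-of-ratios scaling. Within a library, where scaling plays no part, the ratio of SREBF2 to SREBF1 TPM was 0.427, 0.442 and 0.407 in siCTR and 0.572, 0.586 and 0.542 in siCEP20 libraries, a pair chosen after its values were seen.

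SCAP, the escort of both precursors, was at 35.1, 40.5 and 35.5 TPM in siCTR and 52.1, 61.8 and 58.1 TPM in siCEP20 libraries. The groups were clearly apart, and SCAP rose 1.53-fold (log2 fold change 0.62 ± 0.09 SE, limma adjusted p = 0.00101), just past the fold change needed for a call. INSIG1, an ER anchor of SCAP and itself a target of the SREBPs, was at 20.2, 19.7 and 22.1 TPM in siCTR and 30.5, 29.5 and 27.1 TPM in siCEP20 libraries. It rose 1.39-fold without overlap (log2 fold change 0.47 ± 0.08 SE, limma adjusted p = 0.00225). INSIG2, the second anchor, was at 11.9, 17.8 and 11.6 TPM in siCTR and 13.3, 14.2 and 14.4 TPM in siCEP20 libraries. The highest and the lowest of its 6 values both lay in the siCTR group, and its log2 fold change of 0.05 did not pass (limma adjusted p = 0.829) and was -0.10 with median-of-ratios scaling. Of these 5 regulators, 3 passed upward and none downward, where 30.2% and 13.2% of all tested genes did, and their median lay 0.34 above that of all tested genes. The same counts held with median-of-ratios scaling.

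SREBF2 (ENSG00000198911) lies on the plus strand at chr22:41833105-41907306, SCAP (ENSG00000114650) on the minus strand at chr3:47413681-47477126 and INSIG1 (ENSG00000186480) on the plus strand at chr7:155297776-155310235 of hg38. The promoter of SREBF2 is shown because it was the only one among the 34 members with a RefSeq promoter here that had a match to the sterol regulatory element searched for, and those of INSIG1, DHCR7 and MSMO1 because these genes rose and carry CCAAT boxes, the motif of the SREBP partner NF-Y. The promoters of ABCA1 and PMVK are shown as those of the called genes that fell and have a window. Sequences are the gene's own strand from RefSeq (GRCh38.p14), 5′ to 3′, with positions counted from the RefSeq start of transcription, and capitals mark a sterol regulatory element (TCACNCCAC), a CCAAT box (CCAAT, or ATTGG on the other strand) or an E-box (CACGTG).
SREBF2, chr22:41832945-41833024, plus strand: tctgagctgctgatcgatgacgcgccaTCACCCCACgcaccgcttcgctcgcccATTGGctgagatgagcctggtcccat
INSIG1, chr7:155297698-155297775, plus strand: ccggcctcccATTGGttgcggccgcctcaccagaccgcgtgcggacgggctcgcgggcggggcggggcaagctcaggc
DHCR7, chr11:71448433-71448503, minus strand: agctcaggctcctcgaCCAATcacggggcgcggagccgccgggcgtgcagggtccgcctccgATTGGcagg
MSMO1, chr4:165327469-165327648, plus strand: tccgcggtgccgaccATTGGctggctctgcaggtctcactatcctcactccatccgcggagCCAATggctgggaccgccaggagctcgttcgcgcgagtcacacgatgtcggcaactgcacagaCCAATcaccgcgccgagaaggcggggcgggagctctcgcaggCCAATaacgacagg
ABCA1, chr9:104928206-104928325, minus strand: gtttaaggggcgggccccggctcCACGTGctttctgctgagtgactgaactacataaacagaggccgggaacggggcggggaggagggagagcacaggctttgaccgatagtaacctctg
PMVK, chr1:154936720-154936819, minus strand: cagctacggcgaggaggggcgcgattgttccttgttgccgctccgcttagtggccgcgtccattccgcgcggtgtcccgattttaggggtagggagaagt
In the SREBF2 promoter the sterol regulatory element starts at position -133 and the CCAAT box at -106, and the stretch also lies in an exon of the antisense gene SREBF2-AS1. The DHCR7 stretch lies within that gene as GENCODE places it, upstream of the RefSeq start. The MSMO1 stretch holds 4 CCAAT boxes and the DHCR7 stretch 2. The PMVK stretch holds none of the 3 marked motifs. EBP and TM7SF2, which also passed downward, have 3 CCAAT boxes and 1 in their windows.

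RefSeq windows from 250 bases before to 50 bases after a start were matched for 34 of the 39 members and for 10511 of the tested genes, and both strands were searched. The sterol regulatory element was in a window of 1 member, 2.94% of those matched, against 1.35% of the tested genes and 1.39% of all 27305 genes with a window. A CCAAT box was in 24 members, or 70.6%, against 42.9% of the tested genes and 39.7% of all genes with a window. An E-box was in 6 members, or 17.6%, against 12.8% and 8.78%, and a GC box (GGGCGG, bound by Sp1; left in lower case above) in 32 members, or 94.1%, against 77.4% and 48.3%. Among members that passed upward, 10 of 13 with a window had a CCAAT box, and among the other members 14 of 21. These matches describe letters in a window and say nothing about whether a factor bound there, and other spellings of these motifs were not searched.

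The mevalonate pathway, which ends in farnesyl diphosphate, had 1 member that passed upward, 1 that passed downward and 5 that did not pass. Of all tested genes, 30.2% passed upward and 13.2% downward. PMVK, the kinase that adds the second phosphate to mevalonate (ENSG00000163344, chr1:154924740-154936719, minus strand), was at 55.8, 50.7 and 58.6 TPM in siCTR and 35.0, 37.9 and 33.5 TPM in siCEP20 libraries. All siCEP20 values lay below all siCTR values, and PMVK fell 1.53-fold (log2 fold change -0.62 ± 0.08 SE, limma adjusted p = 0.000624). HMGCS1, the synthase that makes HMG-CoA, was at 66.4, 69.0 and 51.8 TPM in siCTR and 80.3, 88.1 and 77.7 TPM in siCEP20 libraries. It rose 1.32-fold without overlap (log2 fold change 0.40 ± 0.11 SE, limma adjusted p = 0.0197), and the pass was lost with median-of-ratios scaling (adjusted p = 0.139). MVK, the kinase just before PMVK, was at 19.4, 21.4 and 15.3 TPM in siCTR and 28.6, 20.7 and 25.4 TPM in siCEP20 libraries. Its groups overlapped by 1 library on each side, and its log2 fold change of 0.39 did not pass (limma adjusted p = 0.061). MVK overlaps MMAB on the other strand. The study's methods describe a strand-specific library and an alignment with default settings, and the strand setting of the later quantification is not given in the sources used here, so reads of the pair may be shared. The same limit holds for FDPS, ACAT2, DHCR7, FDFT1, SREBF1, ACSS2, ABCA1, NPC1 and NPC2, which also overlap a tested gene on the other strand.

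The consecutive kinases MVK and PMVK thus gave values on opposite sides of 0. The ratio of PMVK to MVK TPM within a library was 2.88, 2.37 and 3.82 in siCTR and 1.23, 1.84 and 1.32 in siCEP20 libraries, again a pair chosen after its values were seen. The later enzymes did not pass: MVD, the decarboxylase, had a log2 fold change of 0.26 (limma adjusted p = 0.0723), the isomerase IDI1 0.17 (0.131) and farnesyl diphosphate synthase FDPS -0.13 (0.0699). FDPS has 8 annotated pseudogenes and IDI1 has 3, with which reads could be shared. Among the members described below, HSD17B7 has 2 and SCD has 1. ACAT2, the thiolase at the entry, had a log2 fold change of 0.07 (0.602), which was -0.08 with median-of-ratios scaling. The summed TPM of the 7 genes was 584 ± 21.5 (SD, n = 3) in siCTR and 590 ± 15.8 in siCEP20 libraries.

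The 11 enzymes that make squalene and carry it on to cholesterol had 6 members that passed upward and 2 that passed downward, none of them called. Of all tested genes, 30.2% passed upward and 13.2% downward, and 11.2% were called higher and 4.61% lower. The median log2 fold change of the 11 enzymes was 0.21, which lay 0.08 above that of all tested genes. Their summed TPM went from 904 ± 48.6 (SD, n = 3) to 1104 ± 52.3, a ratio of 1.22, and the groups did not overlap. DHCR7, the reductase of the last step on one branch to cholesterol, was at 154, 146 and 169 TPM in siCTR and 219, 223 and 258 TPM in siCEP20 libraries. It rose 1.49-fold with wide separation (log2 fold change 0.57 ± 0.08 SE, limma adjusted p = 0.000954) and was just short of a call. SQLE, the epoxidase that is a rate-controlling step of this stretch, was at 85.7, 90.9 and 102 TPM in siCTR and 125, 136 and 126 TPM in siCEP20 libraries. It rose 1.39-fold (log2 fold change 0.48 ± 0.07 SE, limma adjusted p = 0.00153), with the nearest libraries of the groups far apart. MSMO1, the oxidase that starts removal of the methyl groups at carbon 4 of the sterol ring, was at 68.9, 75.2 and 76.9 TPM in siCTR and 95.9, 101 and 102 TPM in siCEP20 libraries. It rose 1.35-fold (log2 fold change 0.43 ± 0.06 SE, limma adjusted p = 0.00119), again without overlap.

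LSS, the cyclase that folds the squalene epoxide into lanosterol, rose from 27.6 ± 3.48 to 37.9 ± 1.27 TPM (SD, n = 3; limma adjusted p = 0.0058). FDFT1, squalene synthase, rose from 189 ± 5.00 to 246 ± 38.0 TPM (0.0194), and the demethylase CYP51A1 from 80.5 ± 6.98 to 93.3 ± 3.33 TPM (0.0469). With median-of-ratios scaling LSS still passed (adjusted p = 0.0176), whereas FDFT1 (0.094) and CYP51A1 (0.375) did not. CYP51A1 also has 3 annotated pseudogenes and overlaps AKAP9 on the other strand. EBP, the isomerase that moves the sterol ring's double bond, fell from 129 ± 6.53 to 111 ± 1.56 TPM (limma adjusted p = 0.0178). TM7SF2, a reductase that shares its step with another protein, fell from 29.0 ± 3.26 to 22.9 ± 2.75 TPM (0.0466). Both share bases on their own strand with another annotated gene, TM7SF2 with VPS51, so their levels are uncertain to that extent, and both lost the pass once transcript length and GC content were corrected for (adjusted p = 0.395 and 0.141). NSDHL, HSD17B7 and SC5D did not pass, with log2 fold changes of 0.16, -0.18 and 0.11, the last of which was -0.03 with median-of-ratios scaling.

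**Figure D2:**
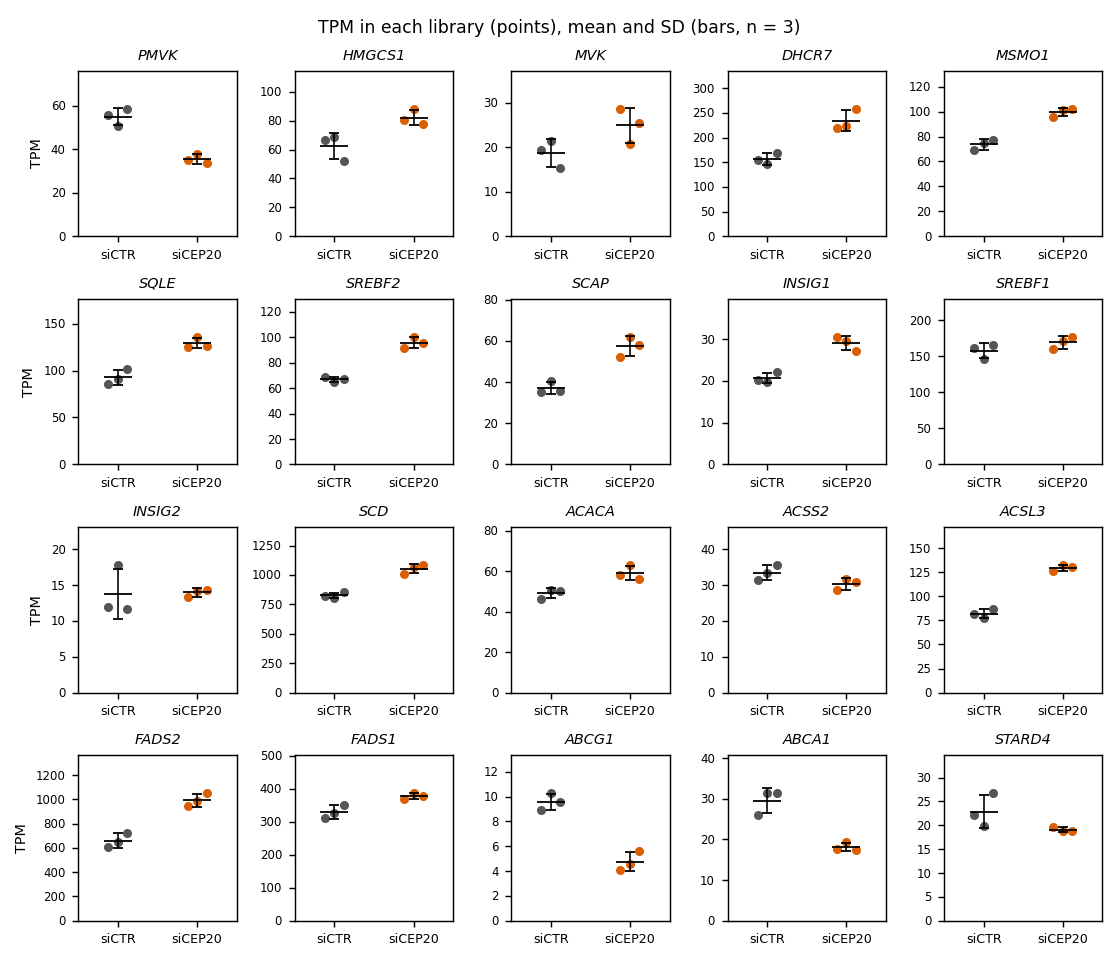
TPM of 20 of the genes in each library (points), with the mean and SD of each group of 3 (bars); every vertical axis starts at 0. PMVK, ABCG1 and ABCA1 have all siCEP20 points below all siCTR points, DHCR7, SQLE, MSMO1, SREBF2, SCAP, INSIG1, SCD, ACSL3 and FADS2 all above, and MVK, SREBF1, INSIG2, ACSS2 and STARD4 do not separate or barely do.

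In fatty acid synthesis, 2 of 5 members passed upward, none passed downward and none was called. Of all tested genes, 30.2% passed upward and 13.2% downward, and 11.2% were called higher and 4.61% lower. SCD, which puts the double bond into saturated fatty acids, was the most abundant member on the per-length TPM scale in siCTR libraries, at 821, 804 and 851 TPM there and 1010.3, 1066 and 1083 TPM in siCEP20 libraries. Its groups did not overlap and it rose 1.28-fold (log2 fold change 0.35 ± 0.05 SE, limma adjusted p = 0.000851). ACACA, the carboxylase that commits acetyl-CoA to fatty acids, was at 46.3, 50.7 and 50.1 TPM in siCTR and 58.3, 63.0 and 56.1 TPM in siCEP20 libraries. It rose 1.20-fold with no overlap (log2 fold change 0.26 ± 0.07 SE, limma adjusted p = 0.0171), and lost the pass with median-of-ratios scaling (adjusted p = 0.127). ACSS2, which makes acetyl-CoA from acetate, was at 31.5, 33.3 and 35.6 TPM in siCTR and 28.5, 31.8 and 30.9 TPM in siCEP20 libraries. These values overlapped and its log2 fold change of -0.13 did not pass (limma adjusted p = 0.192), though it did with median-of-ratios scaling (adjusted p = 0.00618). FASN, the synthase itself, went from a mean of 133 ± 2.80 to 142 ± 6.09 TPM and ACLY, the source of cytosolic acetyl-CoA, from 368 ± 7.76 to 376 ± 11.9 TPM. Neither passed, and with median-of-ratios scaling their log2 fold changes were -0.06 and -0.12 in place of 0.09 and 0.03.

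Among the 6 genes of elongation, desaturation, fatty acid activation and glycerolipid synthesis, 3 passed upward and 2 of these, ACSL3 and FADS2, were called. Of all tested genes, 30.2% passed upward and 11.2% were called higher. The median log2 fold change of the 6 genes was 0.15, which lay 0.01 above that of all tested genes. With median-of-ratios scaling or the length and GC correction none of the 6 was called. The shares of all tested genes called higher were then 6.05% and 10.3%. ACSL3, which activates long-chain fatty acids with CoA (ENSG00000123983, chr2:222860942-222944639, plus strand), was at 81.9, 77.0 and 86.9 TPM in siCTR and 126, 132 and 130.1 TPM in siCEP20 libraries. It had the largest increase of the 39 members and no overlap (log2 fold change 0.66 ± 0.06 SE, 1.58-fold, limma adjusted p = 0.000165). FADS2, a desaturase of polyunsaturated fatty acids (ENSG00000134824, chr11:61792980-61867354, plus strand), was at 604, 646 and 725 TPM in siCTR and 944, 988 and 1050.4 TPM in siCEP20 libraries. All siCEP20 values were higher than all siCTR values, and FADS2 rose 1.51-fold (log2 fold change 0.60 ± 0.07 SE, limma adjusted p = 0.00055). FADS1, the desaturase of a later step in the same route, was at 309.9, 327 and 349.8 TPM in siCTR and 367, 386 and 379 TPM in siCEP20 libraries. It rose 1.15-fold (log2 fold change 0.20 ± 0.06 SE, limma adjusted p = 0.0237), with a small gap between the groups, and lost the pass with median-of-ratios scaling (adjusted p = 0.391).

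FADS1 and FADS2 lie side by side on chromosome 11 and overlap on opposite strands in the annotation, so part of their reads may be shared. FADS2 also overlaps FEN1 on its own strand, which strand-specific counting would not separate, and ACSL3 has 1 annotated pseudogene. The ratio of FADS2 to FADS1 TPM was 1.95, 1.97 and 2.07 in siCTR and 2.57, 2.56 and 2.77 in siCEP20 libraries. The elongases ELOVL5 and ELOVL6 and the phosphatidate phosphatase LPIN1 did not pass, with log2 fold changes of -0.04, 0.09 and -0.03, of which that of ELOVL6 was -0.05 with median-of-ratios scaling. With all 6 genes summed, the level went from 1219 ± 97.8 (SD, n = 3) to 1648 ± 65.7 TPM, and FADS2 alone made up most of that rise.

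The 5 genes of sterol transport and export had 2 members that passed downward, both called, and none that passed upward. Of all tested genes, 13.2% passed downward, 4.61% were called lower and 30.2% passed upward. With median-of-ratios scaling or quantile normalization 4 members passed downward and none upward, where 21.6% and 19.9% of all tested genes passed downward. With the length and GC correction 4 passed downward and 1 upward, where 12.1% and 28.1% of all tested genes did. ABCG1, which passes cholesterol on to lipoproteins (ENSG00000160179, chr21:42199689-42297244, plus strand), was at 8.92, 10.3 and 9.53 TPM in siCTR and 4.10, 4.56 and 5.60 TPM in siCEP20 libraries. The highest siCEP20 value was well below the lowest siCTR value, and ABCG1 fell 1.84-fold on the log2(TPM + 1) scale (log2 fold change -0.88 ± 0.12 SE, limma adjusted p = 0.000937), with a mean TPM of 49.7% of the control. ABCA1, which loads cholesterol and phospholipid onto apolipoproteins (ENSG00000165029, chr9:104781006-104928155, minus strand), was at 25.9, 31.3 and 31.4 TPM in siCTR and 17.6, 19.4 and 17.5 TPM in siCEP20 libraries. It also fell without overlap (log2 fold change -0.67 ± 0.10 SE, 1.59-fold, limma adjusted p = 0.00101). STARD4, a sterol carrier of the cytosol, was at 22.1, 19.8 and 26.7 TPM in siCTR and 19.7, 18.7 and 18.9 TPM in siCEP20 libraries. All 3 siCEP20 values lay below all 3 siCTR values by a very small margin, and the log2 fold change of -0.24 did not pass (limma adjusted p = 0.111), though it did with median-of-ratios scaling (adjusted p = 0.0213).

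NPC1 and NPC2, the pair that moves cholesterol out of lysosomes, did not pass, with log2 fold changes of -0.10 and 0.10, the latter -0.05 with median-of-ratios scaling. NPC1 passed downward with that scaling (adjusted p = 0.00589), and NPC2 passed upward with the length and GC correction (adjusted p = 0.00788). ABCA1 fell in the same libraries in which SREBF2 rose, and the ratio of ABCA1 to SREBF2 TPM was 0.377, 0.486 and 0.465 in siCTR and 0.192, 0.194 and 0.182 in siCEP20 libraries. That of ABCG1 to SREBF2 was 0.130, 0.159 and 0.141 against 0.0448, 0.0455 and 0.0585. Both pairs were chosen after their values were seen.

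**Figure D3:**
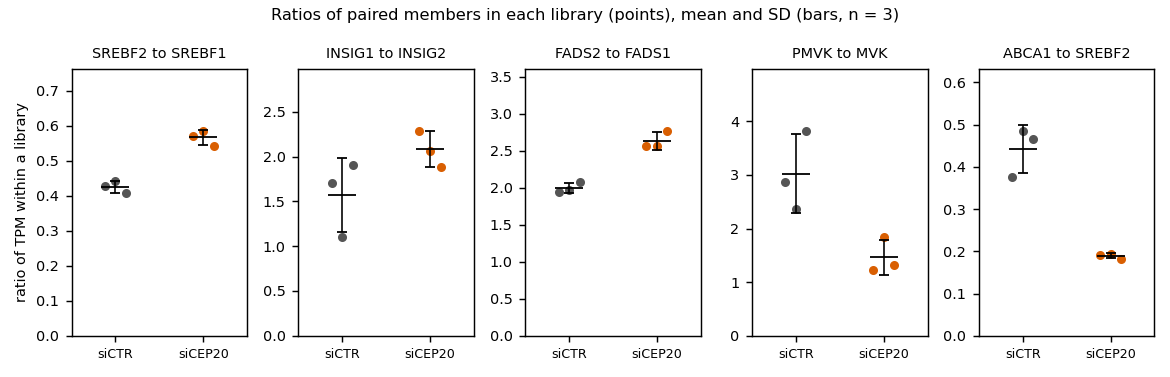
Ratio of TPM of 5 pairs of members within each library (points), with the mean and SD of each group of 3 (bars); every vertical axis starts at 0 and the pairs were chosen after their values were seen. The groups are apart for SREBF2 to SREBF1, FADS2 to FADS1, PMVK to MVK and ABCA1 to SREBF2, while the ratios of INSIG1 to INSIG2 overlap (1.11 to 1.90 in siCTR, 1.89 to 2.29 in siCEP20).

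Log2 fold changes were higher for longer transcripts across the whole table (Spearman's rho 0.254 across 14737 genes, which are not independent and share the same 6 libraries). Across the 39 members rho was 0.195. The part of length in any member's change was not tested. After a correction for length and GC content rho was -0.00471 over all genes and -0.0581 over the members. PMVK then had a log2 fold change of -0.46 (limma adjusted p = 0.00487), ABCA1 of -0.84 (0.000294), ABCG1 of -0.90 (0.00152), ACSL3 of 0.53 (0.000634), FADS2 of 0.57 (0.00151) and SCAP of 0.55 (0.00243). All 6 still passed, and ABCA1 and ABCG1 were still called, whereas the other 4 fell short of the fold change needed. In all, 13 members passed in the same direction under every alternative tried: PMVK, DHCR7, MSMO1, SQLE, LSS, SREBF2, SCAP, INSIG1, SCD, ACSL3, FADS2, ABCG1 and ABCA1. How many of all tested genes did so was not counted, so this number has no background share beside it.

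**Figure D4:**
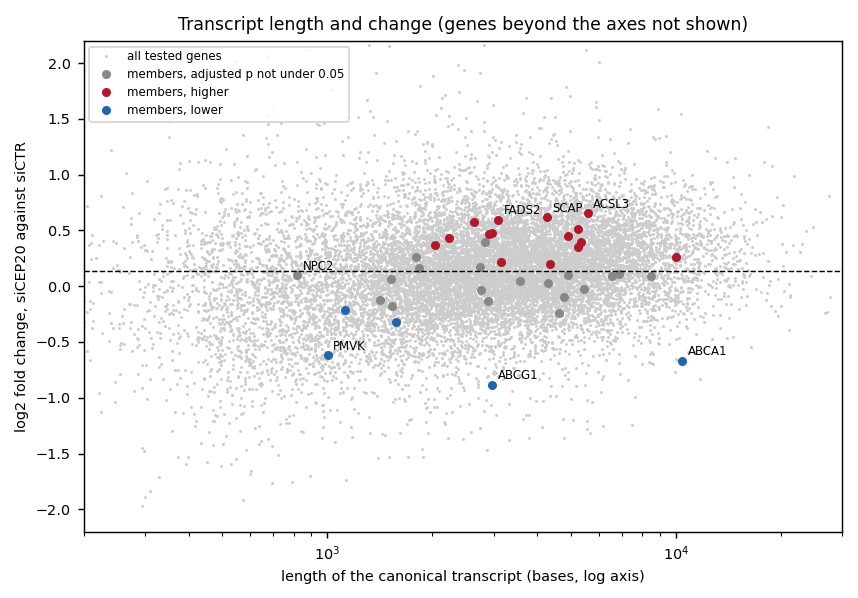
Log2 fold change (siCEP20 against siCTR) against the length of the canonical transcript in bases on a log axis, for all tested genes within the axes (light grey) and the members (coloured by the test), with the dashed line at the median of all tested genes. The 5 members that passed downward lie below the line, from PMVK at 1002 bases to ABCA1 at 10408 bases, and the 15 that passed upward lie above it.

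Further genes of the pathway were described from lists of related function. Of 14 genes that process SREBPs or act beside them, 5 passed upward and 1 downward, where 30.2% and 13.2% of all tested genes did. Their median lay 0.02 above that of all tested genes. RNF139, an ER ubiquitin ligase that responds to sterol, fell from 21.8 ± 1.61 to 12.8 ± 0.866 TPM (SD, n = 3; limma adjusted p = 0.000516). It was the only one called, where 11.2% of all tested genes were called higher and 4.61% lower. ERLIN2, of the ER complex that restrains SREBPs, rose from 17.2 ± 0.971 to 23.9 ± 0.799 TPM (0.00217), and NFYB, a subunit of NF-Y, from 17.6 ± 2.91 to 23.7 ± 1.48 TPM (0.0242). With median-of-ratios scaling NFYB no longer passed (adjusted p = 0.0734), and 1 gene of this list passed upward and 4 downward, where 20.1% and 21.6% of all tested genes did. Of 11 other SREBP target genes tested, 2 passed upward and 3 downward, where 30.2% and 13.2% of all tested genes did. Their median log2 fold change was -0.05, or -0.18 relative to that of all tested genes, and 3 of the 11 had a positive value. TMEM97, a sterol-binding ER protein, rose from 54.4 ± 2.11 to 81.4 ± 2.09 TPM (0.00024) and ME1, a source of NADPH, from 60.3 ± 6.38 to 90.5 ± 3.35 TPM (0.000944), while the aldolase ALDOC fell from 30.7 ± 2.89 to 22.9 ± 0.583 TPM (0.0058). THRSP was listed at 0 in all 6 libraries.

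Since ABCA1 and ABCG1 are LXR targets, the receptors and 7 further targets or partners above the TPM filter were described too, of which 1 passed upward, 2 downward and none was called. Of all tested genes, 30.2% passed upward and 13.2% downward, and 11.2% were called higher and 4.61% lower. The list's median log2 fold change was 0.01, or -0.12 relative to that of all tested genes. With median-of-ratios scaling none passed upward, 3 passed downward and 1 was called lower. The shares of all tested genes were then 20.1%, 21.6% and 7.46%. NR1H2, the broadly expressed LXR, fell from 154 ± 7.57 to 107 ± 5.16 TPM (limma adjusted p = 0.000453). NR1H3, the other LXR, was at 15.5 ± 1.10 and 15.6 ± 0.671 TPM and its groups overlapped. PLTP, a phospholipid transfer protein, fell from 5.34 ± 0.688 to 3.70 ± 0.467 TPM (0.0314), and LPCAT3, which remodels phospholipids, rose from 53.3 ± 4.04 to 64.0 ± 3.99 TPM (0.0282), a pass lost with median-of-ratios scaling (0.177). NR1H2, PLTP and LPCAT3 all overlap a gene on the other strand. ABCG4 was under the filter, at 0.55 to 0.72 TPM.

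Of 13 other elongation, desaturation and activation genes tested, 9 passed upward and 1 downward, where 30.2% and 13.2% of all tested genes did, and their median log2 fold change was 0.44, which lay 0.30 above that of all tested genes. The counts were 8 and 2 with median-of-ratios scaling, against 20.1% and 21.6% of all tested genes. In the main fit 1 was called higher and 1 lower, where 11.2% and 4.61% of all tested genes were. ELOVL2, an elongase of polyunsaturated chains, was called higher, from 8.65 ± 1.04 to 13.6 ± 1.28 TPM (SD, n = 3; limma adjusted p = 0.00355), and ELOVL4, an elongase of very long chains, was called lower, from 2.64 ± 0.301 to 1.13 ± 0.420 TPM (0.0116), both named after their values were seen. ELOVL1, another such elongase, rose from 139 ± 9.72 to 198 ± 2.60 TPM (limma adjusted p = 0.000498), HACD3, a dehydratase of the elongation cycle, from 133 ± 6.51 to 181 ± 8.35 TPM (0.000861), and FADS3, the neighbour of FADS1 and FADS2, from 50.7 ± 3.16 to 72.9 ± 6.71 TPM (0.00183). Of 15 other sterol transport genes tested, 9 passed upward and none downward, where 30.2% and 13.2% of all tested genes did, and 3 were called higher, where 11.2% were. GRAMD1A, a sterol carrier between plasma membrane and ER, rose from 316 ± 22.1 to 521 ± 33.9 TPM (0.000179), the oxysterol-binding-related protein gene OSBPL5 from 4.17 ± 0.715 to 9.57 ± 0.611 TPM (0.00048), and CAV1, the caveolar protein, from 204 ± 26.5 to 352 ± 41.2 TPM (0.00102). With median-of-ratios scaling 5 of this list passed upward and 2 downward, where 20.1% and 21.6% of all tested genes did.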

How the data were processed

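RNA-seq libraries of A549 cells were compared, 3 siCTR with 3 siCEP20. The authors trimmed the reads with fastp 0.20.1, aligned them to hg38 with HISAT2 2.1.0, obtained gene-level TPM with StringTie 2.0 and deposited these values under Ensembl IDs. The library was strand-specific and the alignment used default settings per the study's methods; the annotation release and the strand setting of the quantification are not given in the sources used here, and the labels and the study's methods differ in medium, RNA kit and RNA input. Each library sums to the same total, so depth is unknown, no counting interval can be given, and precision rests on 3 replicates a group. Library columns were mapped by name. Genes were named and placed with GENCODE 44 (60370 of 60624 IDs matched), and promoter windows came from RefSeq.

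The authors tested counts with DESeq2, which were not analysed here. Genes whose mean reached 1 TPM were tested on log2(TPM + 1) in R 4.3.3 with limma 3.58.1 (eBayes with a trend after lmFit, no block), with Benjamini-Hochberg adjustment over all 14778 genes; the thresholds for a call are the study's. Role sums and ratios were described without a test. The members, lists, tests and alternatives were chosen with earlier results of these data known. Values in every library are given for members that were called, the 5 SREBP regulators and the 3 members with the smallest adjusted p in each role; other lists are represented by their 3 smallest. The code was tested on simulated data. Alternative settings were a pseudocount of 0.1, a mean of at least 5 TPM or no filter, quantile normalization, median-of-ratios scaling, eBayes with no trend, a block for the replicate number, a loess correction for length and GC content (span 0.5), each library left out in turn, and no fold threshold or one of 2. Tables and figures were made in Python 3.11.15 with pandas 2.3.3 and matplotlib 3.10.9.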

Additional observations from a re-analysis of the deposited data

How the results depend on the processing

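The 3 members called higher became 0 with median-of-ratios scaling, 0 with the length and GC correction, 15 with no fold threshold and 0 at a fold of at least 2, and were between 1 and 4 with a library left out, the 1 being without siCTR replicate 1. The 3 called lower became 5 with no fold threshold and 0 at a fold of at least 2, and were between 2 and 3 with a library left out. Over all genes, the 1659 called higher became 894 with median-of-ratios scaling, 923 with quantile normalization, 4457 with no fold threshold and 261 at a fold of at least 2, and the 682 called lower became 1103, 1944 and 147 with median-of-ratios scaling, no threshold and a fold of at least 2. The cause of these shifts was not tested, apart from the thresholds, which change the counts by construction. The members' median log2 fold change went from 0.11 to -0.03 with median-of-ratios scaling. Without a filter it stayed at 0.11, and its value relative to all genes went from -0.03 to 0.066 because the reference then held more genes. Against that reference the 14778 genes tested in the main fit had a median of 0.093. Relative to all genes the members' median was 0.059 with quantile normalization and 0.00076 with the length and GC correction. With a library left out it ranged from -0.014 to 0.027, being 0.015 without siCTR replicate 1, 0.0035 without siCTR replicate 3 and 0.027 without siCEP20 replicate 2. Of the 20 members that passed, 13 kept the pass and the direction under every alternative, 7 lost the pass under some (HMGCS1, EBP, FDFT1, TM7SF2, CYP51A1, ACACA and FADS1) and 0 changed sign. The same counts were not made over all tested genes. Of the 19 that did not pass, 12 passed under some alternative (MVK, FDPS, MVD, IDI1, NSDHL, HSD17B7, SC5D, ACSS2, ELOVL5, STARD4, NPC1 and NPC2), 6 of them downward with median-of-ratios scaling, and 10 changed sign under some alternative. With median-of-ratios scaling the log2 fold change was -0.083 for ACAT2, -0.029 for SC5D, -0.047 for SREBF1, -0.095 for INSIG2, -0.060 for FASN, -0.12 for ACLY, -0.049 for ELOVL6 and -0.050 for NPC2. With quantile normalization it was -0.0093 for ACAT2, -0.071 for SC5D, -0.11 for INSIG2 and -0.057 for ELOVL6. With the length and GC correction it was -0.037 for SC5D, -0.026 for INSIG2, -0.041 for FASN, -0.036 for ACLY and -0.042 for ELOVL6. Without siCTR replicate 1 it was -0.0027 for SC5D and -0.040 for INSIG2, without siCTR replicate 2 -0.035 for ACAT2 and -0.022 for SC5D, without siCTR replicate 3 -0.056 for INSIG2, 0.030 for ELOVL5 and 0.064 for LPIN1, and without siCEP20 replicate 3 -0.024 for ELOVL6 and 0.059 for LPIN1. With a library left out the other end of the range was 0.15 for ACAT2, 0.34 for SC5D, 0.23 for INSIG2, 0.16 for ELOVL6, -0.087 for ELOVL5 and -0.14 for LPIN1. The labels do not say whether the replicate numbers pair the samples. Deviations from the group means of same-numbered libraries correlated at 0.157, -0.0614 and -0.0623, and those of differently numbered libraries at -0.121 to 0.170. These few values cannot show whether the samples were paired. With the replicate number as a block, 3 members were called higher and 3 lower and 1654 and 694 of all genes, the members' median stayed at 0.11, CEP20 at -0.92, and CYP51A1 lost the pass. Depth is unknown, so no limit for weakly expressed genes can be set from counts.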

Other observations

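Genes that burn fatty acids or use the intermediates of the mevalonate pathway were described outside the 39 members. Of 17 genes of mitochondrial fatty acid oxidation, 2 passed upward, where 30.2% of all tested genes did, and 7 passed downward, where 13.2% did, with a median log2 fold change of -0.11. With median-of-ratios scaling none passed upward and 9 passed downward, where 20.1% and 21.6% of all tested genes did. ECHS1, an enoyl-CoA hydratase, fell from 204 ± 2.62 to 137 ± 6.54 TPM (SD, n = 3; limma adjusted p = 0.000174). ECI1, an isomerase for unsaturated chains, fell from 99.1 ± 3.33 to 63.9 ± 3.83 TPM (0.000243), and it overlaps ECI1-AS1 on the other strand. ECI1 was the only one called, where 11.2% of all tested genes were called higher and 4.61% lower. CPT1A, the carnitine transferase that admits fatty acids to mitochondria, fell from 38.1 ± 2.98 to 26.9 ± 1.31 TPM (0.00197). Their summed TPM went from 1753 ± 37.0 to 1487 ± 60.8, without overlap.

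Of 15 genes that use isoprenoids, 6 passed upward and 1 downward, where 30.2% and 13.2% of all tested genes did. None was called, where 11.2% of all tested genes were called higher and 4.61% lower. With median-of-ratios scaling 2 passed upward and 3 downward, against 20.1% and 21.6%. ICMT, which methylates prenylated proteins, rose from 37.1 ± 2.84 to 55.6 ± 4.09 TPM (limma adjusted p = 0.00105), FNTA, a subunit of the farnesyl and geranylgeranyl transferases, from 68.8 ± 6.16 to 90.4 ± 6.53 TPM (0.00723), and RABGGTB, of the Rab transferase, from 50.2 ± 2.07 to 60.8 ± 0.800 TPM (0.00757; 0.0813 with median-of-ratios scaling). Of 19 triglyceride and lipid droplet genes, 3 (15.8%) passed upward and 1 (5.26%) downward, where 30.2% and 13.2% of all tested genes did. With median-of-ratios scaling 3 passed upward and 4 downward, where 20.1% and 21.6% of all tested genes did. MGLL, the monoglyceride lipase, rose from 20.2 ± 1.61 to 38.4 ± 2.31 TPM (0.000163). It was the only one called, where 11.2% of all tested genes were called higher. DGAT1, which makes triglyceride, rose from 24.2 ± 1.14 to 34.4 ± 3.61 TPM (0.00351), and BSCL2, seipin, from 71.2 ± 9.91 to 101 ± 2.83 TPM (0.00413). BSCL2 shares bases with a readthrough gene on its strand.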
